A study of Mus musculus with 12 samples.

Results

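Chemokines are small secreted proteins that bind receptors on leukocytes and set the direction in which those cells move. T cells make a limited set of them once they have been activated. The RNA of 6 chemokine genes, grouped by name as made by T cells, was followed here. These were the CC chemokines *Ccl3*, *Ccl4* and *Ccl5*, and *Xcl1*, whose product binds XCR1 on cross-presenting dendritic cells. The others were *Cxcl10*, a ligand of CXCR3, and *Cxcl16*, a membrane-bound ligand of CXCR6 made mainly by antigen-presenting cells. The 6 were taken by name from the 17523 genes of the table by their Entrez identifiers, and 6 of 6 were found and passed the filter on low values.

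The cells came from the spleens of Gr/fr mice on the C57BL/6 background. In these mice the *Csf2* locus, which encodes GM-CSF, also drives iCre and BFP, and a Rosa26eYFP allele with a floxed stop turns on YFP in cells that express or once expressed *Csf2*. Every group therefore carried both alleles, and the methods give the sorted mice as 2 to 3 months old. CD4+ T cells were sorted by CD44 and a further surface marker as naïve (CD44−) or TEM (effector memory, CD44hi), and each as YFP− or YFP+, which gave 4 groups of 3 libraries and 12 libraries in all. Because YFP stays on after *Csf2* falls silent, the YFP+ gate holds past as well as present producers. The methods give n = 3 for the Gr/fr mice sorted. Nothing in the labels says how many animals went into a library, so p-values measure the spread between these libraries. In each group *Xist* was at 11867 or more in replicates 1 and 2 and at 24.7 or less in replicate 3, where *Ddx3y*, a Y-linked gene, was at 3869 to 4242, so the replicate numbers also separate the sexes in the same way in all 4 groups.

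Each library held 40974124 to 57822269 reads on genes (median 44929387). Values below are normalized counts, meaning reads divided by the size factor of the library, so that a level of 1 is close to 1 read. *Csf2* was at 138.5, 55.9 and 152.1 in the TEM YFP+ libraries and at 2.46, 0.741 and 2.04 in the TEM YFP− libraries. Naïve YFP+ cells held 1.24, 3.94 and 1.86 normalized counts of *Csf2*, so this gate was not marked by current *Csf2* transcript. *Cd44* was at 2334 to 3372 in naïve and 21778 to 29383 in TEM libraries, as sorted. The summed level of 6 T cell markers lay between 153585 and 222116 in every library, and no group stood apart by it. Markers of other cells differed between groups and are given with the results below. Naïve YFP+ replicate 2 stood apart from its group, with a summed level of 5084 for 8 macrophage and monocyte markers against 680 and 163 in the other naïve YFP+ libraries. In bulk RNA, fewer cells of a type and less RNA per cell cannot be told apart.

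The 6 genes lie on 3 chromosomes (RefSeq, GRCm38.p6). *Cxcl16* is at chr11:70454389-70459984, *Ccl5* at chr11:83525778-83530518, *Ccl3* at chr11:83647843-83649378 and *Ccl4* at chr11:83648624-83664683. *Xcl1* is at chr1:164931644-164935522 and *Cxcl10* at chr5:92346638-92348889. The gene models of *Ccl3* and *Ccl4* overlap each other, *Ccl5* overlaps *Gm32650*, *Cxcl10* overlaps *Art3* and *Cxcl16* overlaps *Zmynd15*, while *Xcl1* overlaps no other gene. The strand setting of the counting is not given in the sources used here, so reads in a shared stretch cannot be assigned with certainty.

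RefSeq promoters were at hand for 3 of the 6 genes, and these are shown because all 3 transcripts were higher in TEM than in naïve cells. Each run is the 250 bases before the start of the gene, read 5′ to 3′ on the minus strand of GRCm38.p6. Capitals mark matches on either strand to 5 motifs: a T-box site (TCACACC), a Runx site (TGTGGT), an interferon-stimulated response element (ISRE, GAAA and GAAA with any 2 bases between them), a κB site (GGG, any 2 bases, TTTCC) and a GAS element (TTCNNNGAA).
Ccl3, chr11:83649379-83649628: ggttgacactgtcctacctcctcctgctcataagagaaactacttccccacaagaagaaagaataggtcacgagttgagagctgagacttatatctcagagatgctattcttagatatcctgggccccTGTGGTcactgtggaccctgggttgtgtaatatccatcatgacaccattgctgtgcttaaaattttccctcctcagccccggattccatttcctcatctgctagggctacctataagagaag
Xcl1, chr1:164935523-164935772: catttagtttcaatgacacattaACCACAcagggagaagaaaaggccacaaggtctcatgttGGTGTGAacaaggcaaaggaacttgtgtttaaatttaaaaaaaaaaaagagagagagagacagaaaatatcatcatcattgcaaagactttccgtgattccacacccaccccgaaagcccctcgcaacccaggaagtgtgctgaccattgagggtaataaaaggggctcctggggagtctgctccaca
Cxcl10, chr5:92348890-92349139: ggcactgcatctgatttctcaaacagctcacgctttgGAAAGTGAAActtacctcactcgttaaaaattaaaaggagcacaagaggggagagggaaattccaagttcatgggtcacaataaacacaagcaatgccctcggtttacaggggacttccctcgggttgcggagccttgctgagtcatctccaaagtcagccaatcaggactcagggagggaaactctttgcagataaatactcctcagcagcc

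The *Ccl3* window held 1 Runx match, TGTGGT, beginning 122 bases before the start. The *Xcl1* window held a T-box match in reverse, GGTGTGA, 188 bases before the start, and a Runx match in reverse, ACCACA, 227 bases before it. The *Cxcl10* window held 1 ISRE match, GAAAGTGAAA, 213 bases before the start. The κB letters used here are narrow, and close variants in this window, gggaaattcc and ggggacttcc, were not marked by them. The lack of a marked κB match thus does not mean that the window lacks a κB site. Among 32851 promoter windows of the same length, the T-box letters were present in 3.33%, the Runx letters in 14.0%, the ISRE in 2.98%, the κB site in 1.41% and the GAS element in 7.02%. These matches describe the letters of the windows only, since no binding was measured.

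Naïve cells held little RNA of the 6 chemokines and TEM cells held far more (plot of the 6 transcripts by library). In YFP− cells, 6 of 6 were higher in TEM than in naïve cells by limma. A call here means a p-value of 0.05 or less after Benjamini-Hochberg adjustment over all 15587 genes tested. In YFP+ cells 5 of 6 were higher, the exception being *Cxcl16*. Calls were common in both comparisons: 49.8% of all genes were called in YFP− cells, 29.9% as higher, and 41.4% in YFP+ cells, 24.7% as higher. Markers of other cells were higher in TEM cells as well, beside the chemokines called. Of 6 conventional dendritic cell markers, 6 were higher in YFP− cells (mean sum 106 in naïve and 13697 in TEM). In YFP+ cells 5 were (185 and 911). So were 5 and 4 of 6 plasmacytoid dendritic cell markers, and 3 and 1 of 8 macrophage and monocyte markers. Of 4 NK cell markers, 3 were higher in YFP− cells (mean sum 248 and 685) and 4 in YFP+ cells (271 and 1797). Of 4 γδ T cell markers tested, 3 were higher and 1 lower in both. Of 2 CD8 T cell markers, 1 was higher in YFP− and 0 in YFP+ cells, and 1 was lower in each. Of 6 B cell markers, 1 was higher and 4 lower in YFP− cells, and 0 passed in YFP+ cells. The part of these cells in the rise of the 6 genes was not tested. The median log2 difference of the 6 genes was 5.58 in YFP− and 4.77 in YFP+ cells, against 0.049 and 0.033 over all genes tested. The comparisons share libraries, since each group enters one by cell type and one by YFP status, and are not independent. Between YFP+ and YFP− cells of the TEM pool, 2 of 6 genes were called, *Xcl1* upward and *Cxcl16* downward, where 6.97% of all genes were called. Between the naïve pools 0 of 6 were called and 0.00642% of all genes, with *Cxcl16* alone at an unadjusted p under 0.05 and 0 of 6 called by edgeR or DESeq2.

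**Figure D1:**
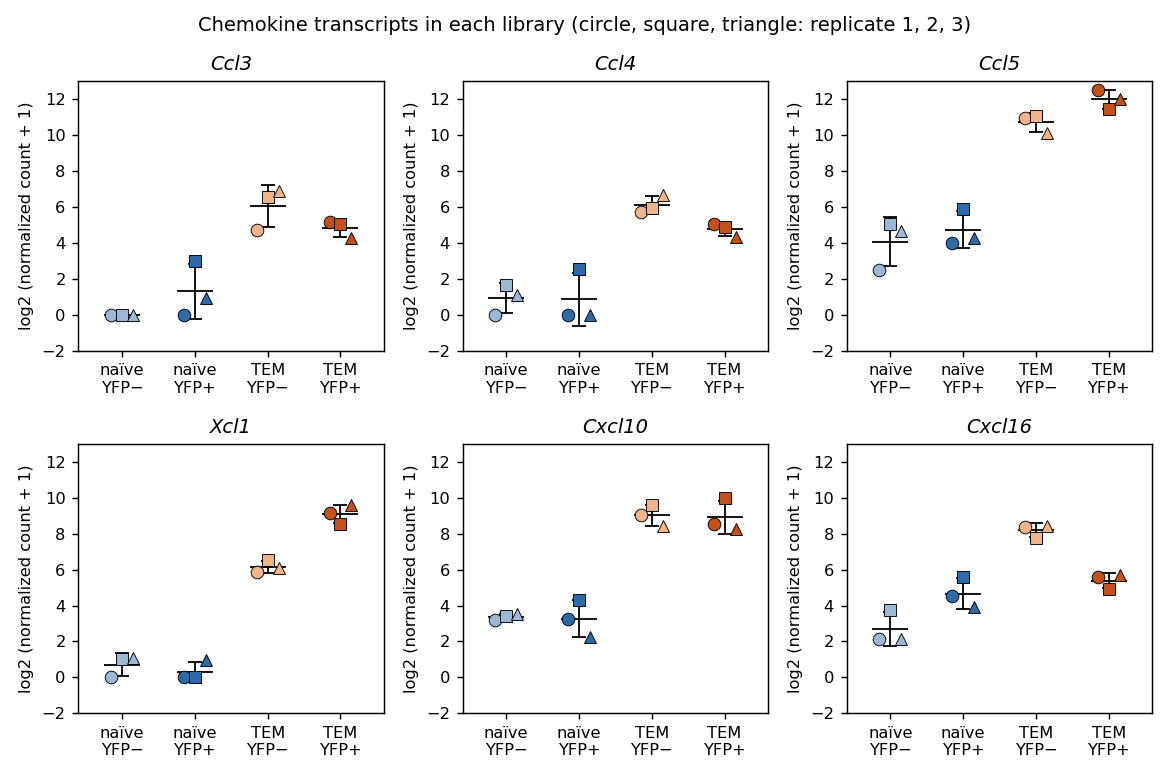
Normalized counts of the 6 chemokine genes on a log2(value + 1) scale in each of the 12 libraries, by group; circles, squares and triangles are replicates 1, 2 and 3, and the bar and whiskers are the mean and SD of the 3 log2 values. Both TEM groups sit above both naïve groups for every gene but *Cxcl16*, whose TEM YFP+ libraries (29.0 to 50.4) overlap the naïve YFP+ ones (14.0 to 46.2). Of all genes tested, 59% in YFP− and 48.7% in YFP+ cells showed no overlap between TEM and naïve libraries, in either direction.

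*Ccl3* and *Ccl4* encode MIP-1α and MIP-1β, which draw T cells and myeloid cells. *Ccl3* was at 0 in all naïve YFP− libraries and at 0, 6.89 and 0.930 normalized counts in naïve YFP+ cells. It was at 25.4, 91.9 and 115.1 in TEM YFP− cells and at 34.4, 32.1 and 18.1 in TEM YFP+ cells. Both naïve groups were at or under the floor of 3 reads per library, so folds against them are lower bounds: at least 23.0-fold higher in TEM YFP− cells (adjusted p = 2.8e-05) and at least 8.94-fold higher in TEM YFP+ cells (adjusted p = 0.0025, limma for both). The TEM groups overlapped through YFP− replicate 1.

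*Ccl4* followed a like course. Naïve YFP− libraries held 0, 2.12 and 1.15 normalized counts and naïve YFP+ libraries 0, 4.92 and 0, again at the floor. TEM YFP− cells held 50.9, 60.0 and 100.8, and TEM YFP+ cells 32.4, 28.0 and 19.0. The rise from naïve to TEM was at least 21.0-fold in YFP− cells (adjusted p = 5.9e-05) and at least 8.39-fold in YFP+ cells (adjusted p = 0.00077). As for 25% of all genes tested, the TEM groups did not overlap for this gene, and each YFP+ library was the lower. Their difference on the log2 scale was -1.35 with an SE of 0.71 (adjusted p = 0.39), and that of *Ccl3* was -1.22 with an SE of 0.75 (adjusted p = 0.50, limma). Neither passed the test, and the 95% intervals reach from -2.86 to 0.41 for *Ccl3* and from -2.89 to 0.18 for *Ccl4*.

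*Ccl5*, or RANTES, is made late after T cell activation and is held in memory cells. It was the most abundant of the 6 in every TEM library, where it made up 52.7 to 84.6% of their summed reads. Naïve YFP− libraries held 4.61, 31.8 and 24.2 normalized counts and naïve YFP+ libraries 14.8, 59.0 and 18.6. TEM YFP− libraries held 1972, 2161 and 1086, and TEM YFP+ libraries 5835, 2759 and 4087. The level was 86.1-fold higher in TEM than in naïve YFP− cells (adjusted p = 2.9e-06) and 137-fold higher in YFP+ cells (adjusted p = 2.2e-06, limma). All 3 TEM YFP+ libraries lay above all 3 TEM YFP− libraries, where 25% of all genes tested showed no overlap in either direction.

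The *Ccl5* difference between the TEM groups was 2.43-fold in means and 1.28 on the log2 scale (SE 0.64, 95% interval -0.11 to 2.66), with an adjusted p of 0.35 by limma over the 12 libraries. It did not pass, and 23 of 25 alternative fits gave the same call. The 2 that passed were limma fitted to the 6 TEM libraries alone (adjusted p = 0.047) and edgeR with replicate number as block (0.033). edgeR without the block gave 0.089 and DESeq2 0.27. In naïve cells the *Ccl5* groups overlapped, with a log2 difference of 0.67 (SE 0.64).

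*Xcl1* encodes lymphotactin, the ligand by which NK and T cells draw XCR1+ dendritic cells. Its RNA was close to absent in naïve cells, at 0, 1.06 and 1.15 normalized counts in YFP− and 0, 0 and 0.930 in YFP+ libraries. TEM YFP− libraries held 57.4, 90.4 and 66.2, at least 21.2-fold above the naïve floor (adjusted p = 1.3e-06). TEM YFP+ libraries held 575.3, 369.7 and 759.5, at least 180-fold above it (adjusted p = 3.8e-08, limma). The lowest TEM YFP+ library thus stood well above the highest TEM YFP− library.

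Within the TEM pool *Xcl1* was 7.96-fold higher in YFP+ cells, with a mean of 568 ± 195 (SD, n = 3) against 71.3 ± 17.1 (SD, n = 3). The log2 difference was 2.94 with an SE of 0.47 (limma adjusted p = 0.0021). It kept its direction in all 25 alternative fits and passed in 24, missing only with a prior count of 0.1 in place of 1 (adjusted p = 0.17). The share of *Xcl1* in the reads of the 6 genes was 1.94 to 3.21% in TEM YFP− and 8.34 to 14.5% in TEM YFP+ libraries. The difference between the YFP effects in TEM and naïve cells was 3.34 on the log2 scale (SE 0.67, adjusted p = 0.016), a comparison in which 2 of 6 members and 3.55% of all genes were called. Since both naïve groups were at the floor this value depends on the prior count, and edgeR and DESeq2 did not call it (adjusted p = 0.27 and 0.18).

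**Figure D2:**
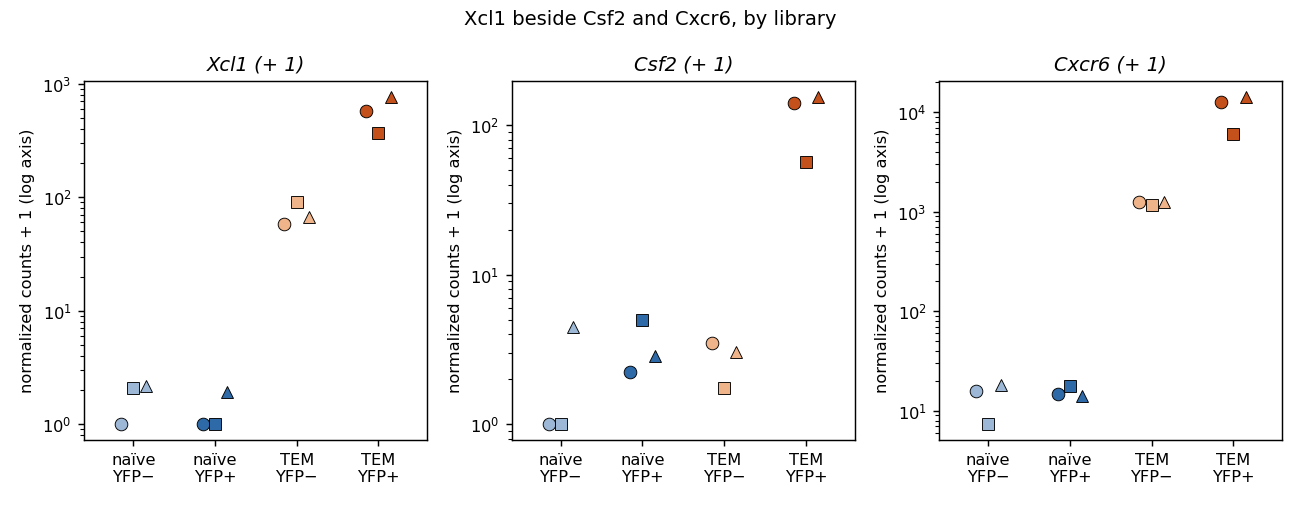
Normalized counts plus 1 (log axis) of *Xcl1*, *Csf2* and *Cxcr6* in each library; symbols mark the replicate number. In all 3 panels the TEM YFP+ libraries lie above every other library, while *Csf2* alone shows no rise from the naïve to the TEM YFP− libraries.

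Some transcripts of other cells were also higher in the TEM YFP+ libraries, beside *Xcl1* and *Ccl5*, and others were not. Of 5 NK cell markers 4 were in the table. Their summed level was 603 to 792 in TEM YFP− and 1409 to 2126 in TEM YFP+ libraries. Of the 4, 3 passed the test as higher. *Eomes* did not pass and had the lower mean in TEM YFP+ cells (390 against 527). *Ncr1* was at 0 in all TEM YFP− libraries and at 35.4, 6.21 and 56.1 in TEM YFP+ libraries. The γδ T cell list summed to 416 to 533 and 1948 to 3725, through the γ chain constant genes *Trgc1*, *Trgc2* and *Trgc4*. *Trdc*, the δ chain constant gene that defines the lineage, was at 214, 248 and 358 in YFP− and 216, 258 and 189 in YFP+ TEM cells, and both groups lay below the naïve range of 459 to 631. Markers of CD8 T cells, *Cd8a* and *Cd8b1*, went the other way, with sums of 685 to 1490 and 187 to 373. Of 6 B cell markers, *Cd79a* (mean 45.6 in TEM YFP− and 201 in TEM YFP+ cells) and *Ebf1* (2.64 and 29.8) passed as higher (2 of 6). Their naïve YFP− and YFP+ means were higher still, at 336 and 418 for *Cd79a* and 39.6 and 37.9 for *Ebf1*. *Cd79b* had the lower mean in TEM YFP+ cells (231 against 343) and did not pass. The sums of the list overlapped at 409 to 497 and 331 to 862. Neutrophil markers summed to 0 to 7.41 and 26.9 to 138, and the 2 tested did not pass (limma adjusted p = 0.10 for *S100a8* and 0.13 for *S100a9*). The part of these cells in the *Xcl1* and *Ccl5* values was not tested.

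*Cxcl10*, an interferon-induced ligand of CXCR3, differed between naïve and TEM cells and passed no test of YFP status. Naïve YFP− libraries held 8.06, 9.55 and 10.4 normalized counts and naïve YFP+ libraries 8.66, 18.7 and 3.72. TEM YFP− libraries held 518, 774 and 347, and TEM YFP+ libraries 374, 995 and 302, so that the TEM groups overlapped widely. It was 58.6-fold higher in TEM than in naïve cells in the YFP− pool (adjusted p = 2.9e-06) and 53.8-fold in the YFP+ pool (adjusted p = 4.4e-06, limma). Its log2 difference between YFP+ and YFP− cells was -0.10 in TEM cells, with a 95% interval from -1.28 to 1.07, and -0.09 in naïve cells, with one from -1.27 to 1.08. Replicate 2 held the most *Cxcl10* in both TEM groups.

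*Cxcl16* was the 1 member called lower in TEM YFP+ than in TEM YFP− cells. Its product is made as a membrane protein, mainly by antigen-presenting cells, and is cut to a soluble chemokine. Naïve YFP− libraries held 3.46, 12.7 and 3.46 normalized counts and naïve YFP+ libraries 22.3, 46.2 and 14.0. TEM YFP− libraries held 334, 217 and 346, all far above the rest, whereas TEM YFP+ libraries held 46.5, 29.0 and 50.4.

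In the TEM pool *Cxcl16* was 7.13-fold lower in YFP+ cells, a log2 difference of -2.81 (SE 0.53, limma adjusted p = 0.0052), and it was called in 25 of 25 alternative fits. From naïve to TEM it was 45.7-fold higher in YFP− cells (adjusted p = 2.9e-06) but 1.53-fold in YFP+ cells, where the groups overlapped (log2 difference 0.72, SE 0.53, adjusted p = 0.30, and -0.29 with quantile normalization). Without naïve YFP+ replicate 2, the library with the raised macrophage markers, the latter value was 1.17 (adjusted p = 0.10). In naïve cells all YFP+ libraries lay above all YFP− libraries, where 5.38% of all genes tested showed no overlap. The naïve difference was 4.20-fold in means and 1.97 on the log2 scale (limma, SE 0.53, unadjusted p = 0.0027, adjusted p = 0.95). That difference did not pass over 15587 genes, and it was 1.52 without naïve YFP+ replicate 2. The YFP effect in TEM cells differed from that in naïve cells by -4.78 on the log2 scale (SE 0.74, adjusted p = 0.0047).

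The summed level of conventional dendritic cell markers, like that of *Cxcl16*, was highest in the TEM YFP− libraries (plot of *Cxcl16* and marker sums). The 6 markers summed to 9205 to 19012 normalized counts in TEM YFP− libraries, 502 to 1129 in TEM YFP+ libraries, 76.0 to 130 in naïve YFP− libraries and 94.9 to 350 in naïve YFP+ libraries. Between naïve and TEM YFP+ libraries these sums did not overlap, whereas the *Cxcl16* values did. Between the naïve pools the sums overlapped, whereas the *Cxcl16* values did not. In TEM cells 5 of the 6 fell in the YFP+ pool, among them *Flt3* by 4.36, *Itgax* by 4.15 and *Zbtb46* by 2.40 on the log2 scale (limma adjusted p = 0.00031, 0.00067 and 0.0075). The sixth, *Xcr1*, which encodes the receptor of XCL1, was at 52.5, 37.1 and 146 in YFP− and 44.5, 29.0 and 84.6 in YFP+ cells and did not pass. No conventional dendritic cell marker was at 0 in all libraries of a TEM group. Markers of plasmacytoid dendritic cells summed to 11600 to 17905 and 7984 to 8865, with 4 of 6 lower in the YFP+ pool. These sums include *Pacsin1*, at 3617 to 6744 in every library, naïve ones included. *Siglech* was at 3367, 1412 and 3263 in TEM YFP− and 118, 26.9 and 55.1 in TEM YFP+ libraries. *Ccr9* went the other way without passing, at 1209, 497 and 1218 against 2826, 1096 and 3405. Markers of macrophages and monocytes summed to 5124 to 9105 in TEM YFP− and 2374 to 5213 in TEM YFP+ libraries. That difference came through *Adgre1*, *Csf1r* and *Lyz2*, of which *Adgre1* alone passed as lower. The other 5 of these 8 had higher means in TEM YFP+ cells, such as 457 against 123 for *C1qc*, and none of them passed. The part of these cells in the *Cxcl16* values was not tested.

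**Figure D3:**
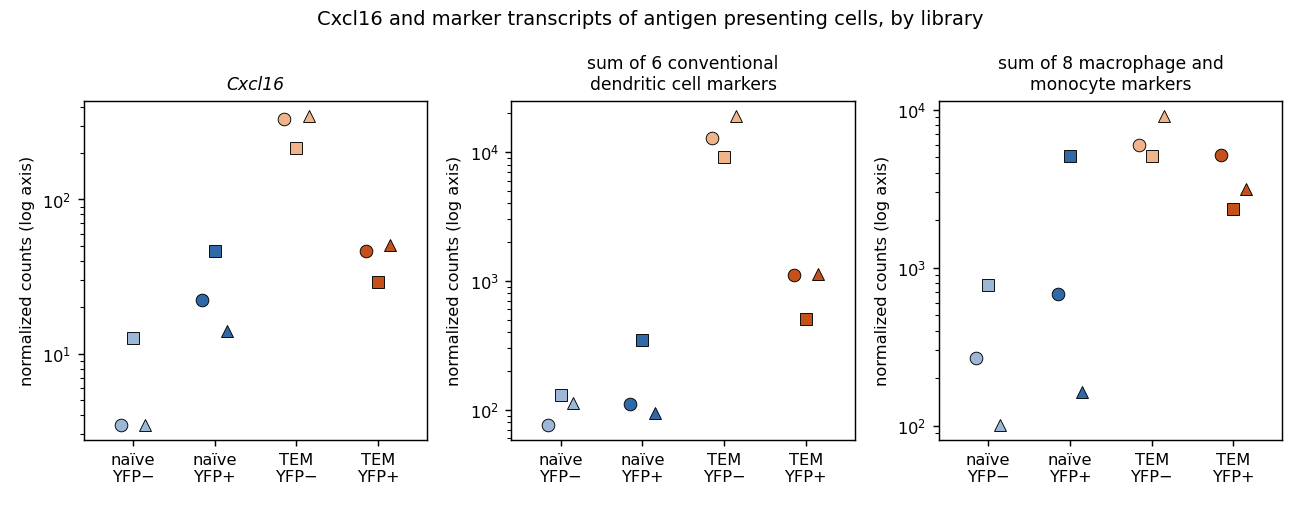
Normalized counts (log axis) of *Cxcl16*, of the sum of 6 conventional dendritic cell markers and of the sum of 8 macrophage and monocyte markers in each library; symbols mark the replicate number. For *Cxcl16* and for the dendritic cell sum every TEM YFP− library lies above every other library, and naïve YFP+ replicate 2 (square) is the highest naïve library in all 3 panels.

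**Figure D4:**
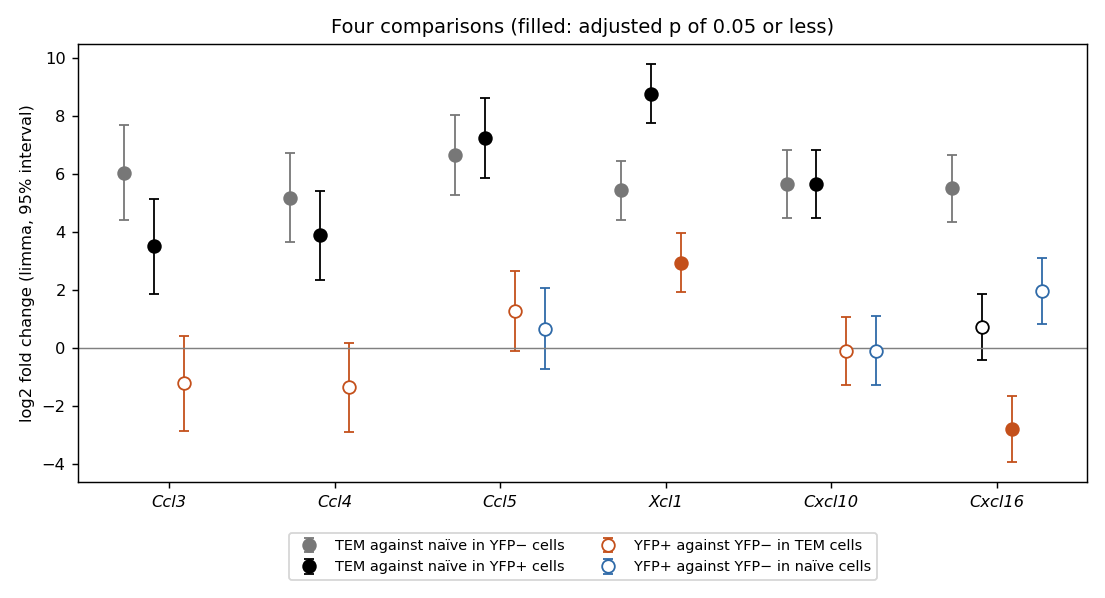
Log2 fold changes of the 6 genes in 4 comparisons from limma, with 95% intervals; filled points had an adjusted p of 0.05 or less, and comparisons between 2 groups at the floor are left out. The TEM against naïve values lie between 3.51 and 8.78 except for *Cxcl16* in YFP+ cells at 0.72, and only *Xcl1* (2.94) and *Cxcl16* (-2.81) are filled for YFP+ against YFP− in TEM cells.

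Exon length was the union over transcripts, so levels per kilobase of exon compare genes only roughly. For *Cxcl10* the union was 2252 bases, as long as the whole gene. It thus counts any introns, and the *Cxcl10* values per kb may be too low. On this scale *Ccl5* led in TEM YFP− cells at 1812 ± 598 normalized counts per kb (SD, n = 3). *Cxcl10* followed at 243 ± 95.3 and *Xcl1* at 136 ± 32.7, and these neighbours overlapped. *Ccl4* at 107 ± 40.3, *Ccl3* at 101 ± 60.8 and *Cxcl16* at 99.0 ± 23.6 could not be put in order, since their ranges overlapped with one another and with *Xcl1*. In TEM YFP+ cells the order by mean was *Ccl5* at 4403 ± 1607, *Xcl1* at 1086 ± 373 and *Cxcl10* at 247 ± 169 per kb. Neighbours did not overlap at these lengths, but for *Xcl1* and *Cxcl10* this depends on the length used for *Cxcl10*. *Ccl4* at 40.1 ± 10.3 and *Ccl3* at 36.8 ± 11.5 overlapped each other, and *Cxcl16* at 13.9 ± 3.77 lay below both. At these lengths *Xcl1* stood below *Cxcl10* by mean in YFP− and above it in YFP+ cells. In naïve cells no gene but *Ccl5* exceeded a mean of 9.10 per kb at these lengths, and *Ccl5* itself was at 21.1 ± 14.6 and 32.1 ± 25.5.

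Genes with the most similar profiles were sought among the 11693 genes whose mean level reached 50 normalized counts, by the root mean square distance of centred log2 values over the 12 libraries. Nearest to *Xcl1* were *Il23r* (distance 0.66), *Cxcr6* (0.74), *Il17re* (0.78) and *Pak6* (0.82), where the profile of *Xcl1* itself had a root mean square of 3.73. *Il23r* was listed at 0 in both naïve groups, with means of 93.6 in TEM YFP− and 316 in TEM YFP+ cells. Nearest to *Cxcl16* were *Hfe* (0.51), *Fgd2* (0.56), *Myof* (0.59) and *Lrrk2* (0.59), each with its highest mean in TEM YFP− cells, such as 1133 for *Fgd2* against 96.3 in TEM YFP+ cells.

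*Serpina3g* (0.38), *Soat2* (0.51), *Cysltr1* (0.64) and *Trpm6* (0.65) were nearest to *Ccl5*. For *Cxcl10* they were *Coro2b* (0.29), *Vsig10* (0.35), *Pdcd1* (0.41), the gene of PD-1, and *Bhlhe40* (0.42). *Rin2* (0.61), *Kif14* (0.65), *Plxnb2* (0.66) and *Lgals3* (0.66) were nearest to *Ccl3*, and *Plxdc1* (0.46), *Ptprj* (0.48), *Ccnb2* (0.49) and again *Plxnb2* (0.49) to *Ccl4*. *Ccl3*, *Ccl4*, *Csf2* and *Ccl22* had means below 50 normalized counts, so they were not among the genes that could be named as nearest. All these distances are descriptions over the same 12 libraries.

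The rest of the chemokine family gives the setting. Of 33 other chemokine genes listed, 20 were in the table and 13 passed the filter. Of these 13, 9 were higher in TEM than in naïve YFP− cells, where 29.9% of all genes were higher. In YFP+ cells 4 were higher (*Ccl1*, *Cx3cl1*, *Cxcl9* and *Cxcl11*), where 24.7% of all genes were. None was lower in either, against 19.9% and 16.7% of all genes. *Ccl1*, a CCR8 ligand of activated T cells, was at 0 in all 6 naïve libraries, at 83.7, 71.1 and 135 in TEM YFP− and at 152, 39.4 and 95.1 in TEM YFP+ libraries. Between YFP+ and YFP− TEM cells 1 of the 13 passed, a count near the 6.97% of all genes. It was *Ccl22*, a CCR4 ligand best known from dendritic cells and macrophages, and it was lower (plot of the chemokine family in TEM cells).

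*Ccl22* was at 133, 67.4 and 111 normalized counts in TEM YFP− and 17.2, 6.21 and 18.1 in TEM YFP+ libraries. The groups did not overlap, as for 25% of all genes tested. The level was 7.51-fold lower in YFP+ cells (log2 difference -2.89, SE 0.51, limma adjusted p = 0.0034). Like *Cxcl16* and the dendritic cell sums given above, it was lower in TEM YFP+ than in TEM YFP− cells. The part of dendritic cells in the *Ccl22* values was not tested. *Ccl6* and *Ccl9*, which lie between *Ccl5* and *Ccl3* on chromosome 11 and are known from myeloid cells, had log2 differences of -2.50 (SE 1.04, adjusted p = 0.22) and -2.79 (SE 1.10, adjusted p = 0.19) and did not pass. So of the 5 tested genes from *Ccl5* to *Ccl4* on chr11:83525778-83664683, which include *Ccl9*, *Ccl6* and *Ccl3*, none passed between the TEM groups by limma over the 12 libraries. *Ccl25* and *Ccl27a*, at 33.4 to 74.8 and 20.2 to 56.3 normalized counts in every library, did not pass in any comparison.

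**Figure D5:**
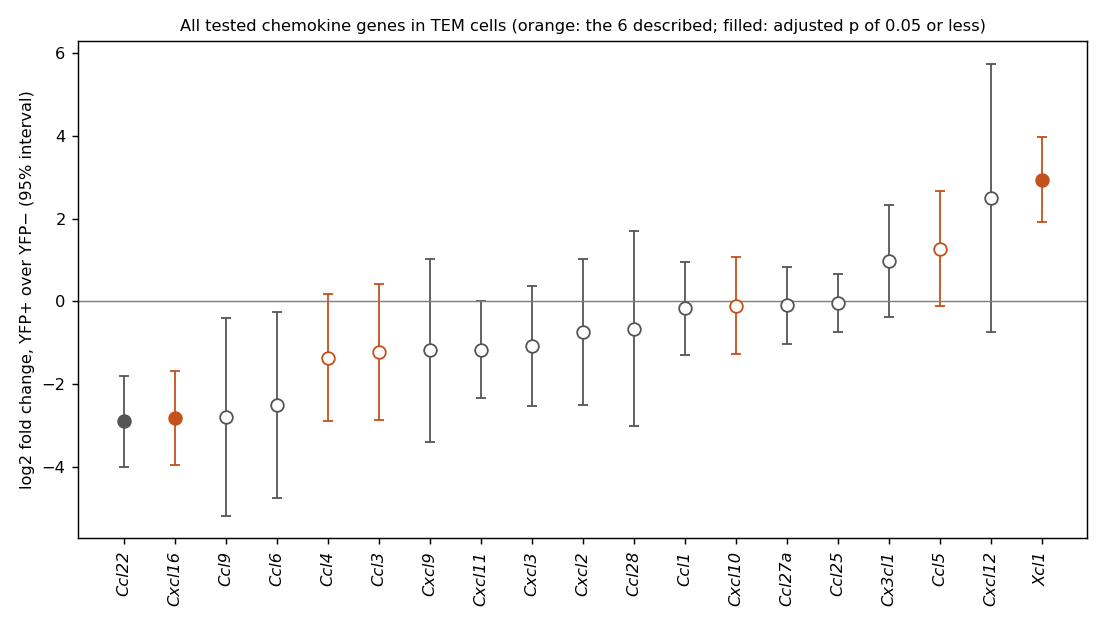
Log2 fold change of YFP+ over YFP− TEM cells, with 95% intervals from limma, for the 19 chemokine genes tested; orange marks the 6 genes described and filled points had an adjusted p of 0.05 or less. The filled points are *Ccl22* (-2.89) and *Cxcl16* (-2.81) on the left and *Xcl1* (2.94) on the right.

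Receptors for the 6 ligands were listed as 7 genes, all of which passed the filter. From naïve to TEM, 6 were higher in YFP− cells, with *Ackr2* the exception, and 4 in YFP+ cells, among them *Xcr1*, *Cxcr3* and *Cxcr6*. Over all genes 29.9% and 24.7% were higher. Between YFP+ and YFP− TEM cells, where 6.97% of all genes passed, 1 of 7 did: *Cxcr6*, the receptor of CXCL16. It was at 1258, 1159 and 1255 normalized counts in TEM YFP− and at 12574, 6095 and 14100 in TEM YFP+ libraries, 8.92-fold higher (log2 difference 3.07, SE 0.35, limma adjusted p = 0.00031). The ligand and its receptor thus differed in opposite directions between these pools. In naïve cells *Cxcr6* was at 6.37 to 17.3, and the YFP effect in TEM cells exceeded that in naïve cells by 2.82 on the log2 scale (SE 0.50, adjusted p = 0.0092).

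*Cxcr3*, the receptor of CXCL10, was at 10016 to 12330 in YFP− and 13717 to 15086 in YFP+ TEM cells, with a log2 difference of 0.38 (SE 0.33, adjusted p = 0.68).

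The last list held 12 genes for the processing, storage and control of these chemokines. In TEM cells 1 was higher and 1 lower in the YFP+ pool, where 2.3% of all genes were higher and 4.67% lower. *Dpp4*, which encodes CD26, a peptidase that trims chemokines such as CCL5 and CXCL10 at the N terminus, was at 4649, 3998 and 5502 in YFP− and 2645, 2618 and 2722 in YFP+ cells. It fell by 0.81 on the log2 scale (SE 0.14, limma adjusted p = 0.0034). *Tbx21*, which encodes T-bet, was at 2357, 2692 and 2207 in YFP− and 3890, 3418 and 4363 in YFP+ cells, a log2 difference of 0.68 (SE 0.19, adjusted p = 0.048) that passed in only 15 of 25 alternative fits. Among those that did not pass were *Runx3*, *Irf1*, *Nfkb1*, *Rela*, *Klf13*, *Srgn*, which encodes the granule proteoglycan serglycin, and *Adam10* and *Adam17*, the sheddases of CXCL16.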

How the data were processed

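RNA of 12 libraries (4 groups of 3) was made by the authors with a stranded total RNA kit and sequenced. Per the methods and labels, reads were mapped to mm10 with DRAGEN, counted on genes with Rsubread and divided by DESeq2 size factors. The annotation, strand setting and versions are not given in the sources used here. The deposited signal is therefore counts divided by size factors, and 100% of values came out as whole reads (tolerance 1e-06). 0 columns were left unused. Symbols and positions came from RefSeq on GRCm38.p6 (16749 of 17523 genes) and exon lengths from GENCODE M21.

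Log2(value + 1) was modelled by group (4 means, 8 residual degrees of freedom, variance trend) using limma 3.58.1 under R 4.3.3. The filter asked for 5 or more normalized counts in 3 or more libraries, which 15587 genes met. Benjamini-Hochberg adjustment ran over all of these, and a gene was called at an adjusted p of 0.05 or less. The fits were tested on simulated data. The fold is a ratio of group means, and a group with a mean of at most 3 reads per library counts as at the floor. Alternatives were other prior counts, filters and scalings, edgeR 4.0.16 and DESeq2 1.42.0 on the whole reads, a replicate block and leaving out each library. Library depth limits low levels, and floors cover counting error only.

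The 6 genes and all gene lists were chosen with earlier results of these data known. Named genes are the 6 members, up to 8 genes a list by mean level, defining markers, the 4 nearest profiles of each member, and *Csf2* and *Cd44* as checks; a few listed genes are not reported here. Same-numbered YFP+ and YFP− libraries deviated together (r from 0.180 to 0.356 in TEM and 0.306 to 0.491 in naïve cells), so the numbers count as pairs for YFP+ against YFP−; over all groups r went down to -0.0199. The tests printed in the text are nevertheless unpaired unless a block is named, and the replicate block was an alternative. The authors' own comparisons were not used.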

Additional observations from a re-analysis of the deposited data

Results flagged for a closer look

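Both results below were picked out because the effect of YFP status differed between TEM and naïve cells in a test of the difference itself (limma, adjusted over 15587 genes). For *Xcl1* the difference was 3.34 on the log2 scale: the TEM libraries rose from 57.4 to 90.4 in YFP− to 370 to 759 in YFP+ cells, while all naïve libraries held at most 1.15 normalized counts. With both naïve groups at the floor no YFP effect could be measured in naïve cells, so this value largely restates the difference within TEM cells. It did not pass in 9 of 25 alternative fits, those by edgeR and DESeq2 included. For *Cxcl16* the difference was -4.78 on the log2 scale. Its YFP+ libraries were lower in TEM cells (29.0 to 50.4 against 217 to 346), without overlap. In naïve cells they were higher (14.0 to 46.2 against 3.46 to 12.7), again without overlap. That naïve difference did not pass (limma adjusted p = 0.95). Of all genes tested, 25% showed no overlap between the TEM pools and 5.38% between the naïve pools.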

How the results depend on the processing

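Counts of called chemokines from naïve to TEM (6 in YFP− and 5 in YFP+ cells) and between naïve pools (0) were the same in each of the alternatives run. In TEM cells the count for YFP+ against YFP− was 2, and it was 1 with a prior count of 0.1. For the difference of YFP effects it was 2, and 1 with a prior count of 0.1, by edgeR and by DESeq2, each with or without the replicate block, and 1 to 2 when 1 library was left out: it was 1, through *Xcl1*, without TEM YFP− replicate 1 or 3 or TEM YFP+ replicate 1 or 3, with adjusted p from 0.050 to 0.055. With the replicate block in limma the counts stayed at 2 and 2 for these comparisons, and *Ccl5* in TEM cells, called by edgeR with the block, was 1 of 2 added calls for these genes, the other being *Ccl5* in limma on the 6 TEM libraries alone. Values near 0 changed sign. *Cxcl10* in TEM cells was 0.089 with quantile normalization, 0.062 by edgeR and 0.027 by DESeq2, and -0.62 to 0.23 when 1 library was left out. In naïve cells *Cxcl10* was 0.14 by edgeR, 0.047 by edgeR with the block, 0.15 by DESeq2 and 0.053 by DESeq2 with the block, and -0.61 to 0.42 when 1 library was left out, as *Ccl5* was -0.12 to 1.16. The difference of YFP effects for *Cxcl10* was 0.028 with a prior count of 0.1, 0.41 with quantile normalization and 0.027 with TMM factors, and -0.53 to 0.50 when 1 library was left out. *Cxcl16* from naïve to TEM in YFP+ cells was -0.29 with quantile normalization. The causes were not tested. Over all genes, calls between the TEM pools ranged from 543 with a log2 threshold of 2 to 2412 by DESeq2 with the block (1087 as reported), between naïve pools from 0 to 61 (1), from naïve to TEM from 2750 to 9510 in YFP− (7769) and 2020 to 7954 in YFP+ cells (6453), and for the difference of effects from 267 to 1223 (554). Depth limits the naïve levels of *Ccl3*, *Ccl4* and *Xcl1*, which lie at a few reads per library.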
